A study of Mus musculus with 18 samples.

Results

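CD4+ T cells activated with the highest peptide dose, 10 µM, were compared with CD4+ T cells activated with the lowest dose, 0.01 µM, over all named genes of the deposited table. The libraries were chosen by their dose label alone: 3 at 10 µM and 3 at 0.01 µM, which makes 6 of the 18 libraries of the series. Both groups began as naive CD4+ T cells of 5CC7 T cell receptor transgenic mice, taken from spleen and lymph node, and were kept for 4 days with P13.9 cells loaded with the peptide pPCC. The concentration of pPCC is what the labels give as different between them. P13.9 is a fibroblast line that served as the antigen-presenting cell, and it can still be present when RNA is extracted. Libraries of P13.9 cells alone, of naive CD4+ T cells and of T cells activated at 0.1 and 1.0 µM (3 each) were used beside the end doses. The labels do not say whether the 3 libraries of a dose came from separate mice or cultures, so the p-values measure the spread between these libraries, which may be technical. No label gives the age or sex of the mice.

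A T cell reads the amount and quality of peptide on an antigen-presenting cell through its T cell receptor (TCR), and in a TCR transgenic mouse nearly all CD4+ T cells carry the same receptor, so the peptide dose sets how much ligand they see. Strong and lasting TCR signals are known to favour T helper 1 cells, which express the transcription factor T-bet (Tbx21) and make interferon-gamma. Weak signals are known to favour T helper 2 cells, which express GATA3 and make interleukins 4, 5 and 13. The design text states that the series was made to follow differentiation as TCR signal strength varies, and the end doses are the widest contrast that it holds.

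Values are the authors' normalized 3′ tag counts, in which each library was divided by 1 size factor, and a log2 change is taken on log2(value + 1) as 10 µM minus 0.01 µM with its standard error, so that changes of genes with low values are understated. The 10 µM libraries held 372851 to 659715 reads in named genes and the 0.01 µM libraries 382380 to 733009. Log values correlated at 0.956 to 0.968 between 10 µM libraries and at 0.955 to 0.974 between 0.01 µM libraries. Fibroblast RNA differed between the doses. The median of 13 fibroblast markers, as a percent of their P13.9 level, was 3.04 ± 0.451% at 10 µM and 37.2 ± 9.08% at 0.01 µM (SD, n = 3 each; exact permutation test, two-sided, p = 0.1, the smallest that 3 against 3 libraries allow). With 74 genes that had no read in naive cells, the share was 2.76 ± 0.508% at 10 µM and 23.7 ± 3.03% at 0.01 µM. In these bulk libraries, fewer T cells beside more P13.9 cells and less RNA per T cell cannot be told apart. The 16 CD4+ T cell markers summed to 1608 to 1878 at 10 µM and 1314 to 1472 at 0.01 µM, while 5 markers of CD8+ T and NK cells summed to at most 1.98 in any library of the end doses. B cell markers (4 in the table) summed to 14.7 to 19.2 at 10 µM and 11.4 to 12.6 at 0.01 µM, and 13 myeloid markers to 31.4 to 33.9 at 10 µM and 35.3 to 43.6 at 0.01 µM. No marker was at 0 in all 6 libraries. A number at the end of the description label, whose meaning is not stated, falls in 1 range for the 10 and 0.1 µM libraries and in another for the 1.0 and 0.01 µM libraries, so that dose and number range cannot be told apart at the end doses. The contrasts 10 against 0.1 µM and 1.0 against 0.01 µM each lie within 1 range and are given beside single genes. They share libraries with the main contrast.

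Between the end doses, 1914 of 5897 genes tested differed (32.5%; limma, Benjamini-Hochberg adjusted p under 0.05), of which 872 were higher at 10 µM (14.8%) and 1042 were lower (17.7%). Rises were smaller than falls. The median log2 change was 0.80 among the genes that rose and -1.17 among those that fell, and 219 of the rises against 669 of the falls were at least 1 on the log2 scale. Without 1 library 552 (without 10 µM B) to 718 genes (without 0.01 µM C) were called higher, with 559 without 10 µM A and 570 without 0.01 µM B. A change of at least 3 was seen in 2 of the rises and 45 of the falls. The median over all genes tested was 0.02. A gene was tested if it reached 5 in at least 3 of the 12 activated libraries, and 367 of the falls (652 of all genes tested) passed only through the 0.01 µM libraries, having fewer than 3 of the other 9 at that level; 28 of the rises (219 of all) passed only through the 10 µM libraries. The values of the doses did not overlap in 844 of the 872 and in 1038 of the 1042, beside 53.3% of all genes tested. By comparison, 133 genes (2.26%) were called between 10 and 0.1 µM and 1353 (22.9%) between 1.0 and 0.01 µM, and 354 (6.003%) in a fit of a straight slope on the log dose with the number range as a term.

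Among the 1042 genes that fell, 641 (61.5%) had a P13.9 mean above their 0.01 µM mean, 295 (28.3%) had one between the 2 doses and 106 (10.2%) had one at or below the 10 µM mean. Over all genes tested these shares were 49.7%, 9.36% and 50.6%, where the last also holds genes whose 0.01 µM mean is the lower one. Of the 872 genes that rose, 783 (89.8%) had a P13.9 mean at or below their 10 µM mean. In a correction for the P13.9 share, each library's estimated share of the P13.9 mean was subtracted from each gene, values below 0 were set to 0, and what remained was divided by 1 minus the share. The division raises the 0.01 µM libraries more than the 10 µM libraries, so the difference of a gene with no P13.9 read becomes lower by the division alone. After the correction 478 of the falls (share from the fibroblast markers) or 621 (share from the 74 genes) were still called lower, and 36 or 11 were called higher. Of the rises, 460 or 592 were still called and none was called lower. With the share from the markers subtracted and no division, an alternative chosen after the data were seen, 231 of the falls were still called lower, 71 were called higher and 864 of the rises were still called. That subtraction takes more from the 0.01 µM libraries, and the median over all genes was then 0.67. Below, "the correction" has the share from the markers and the division unless stated, and "subtraction alone" has no division.

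**Figure D1:**
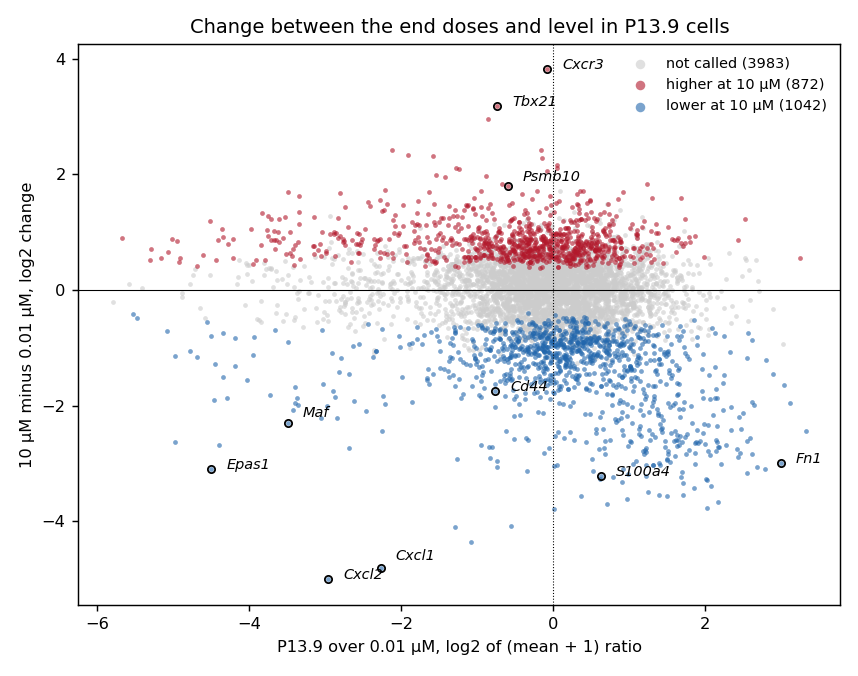
Each point is 1 of the 5897 genes tested. The horizontal axis is the P13.9 mean over the 0.01 µM mean and the vertical axis is the change between the end doses, both in log2; red genes (872) were called higher at 10 µM, blue genes (1042) lower and grey genes neither. Most blue genes lie right of the dotted line, where the P13.9 level is above the 0.01 µM level, while Epas1, Maf, Cxcl1 and Cxcl2 fell and lie left of it.

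Gene span, the genomic distance from a gene's first to its last base in RefSeq, moved with the direction of change. The genes were cut into 5 classes of equal size by span. In the shortest class, of 0.374 to 7.36 kb, 274 rose (25.1%) and 126 fell (11.6%). In the longest class, of 56.8 to 856.6 kb, 56 rose (5.14%) and 328 fell (30.1%). The median log2 change was 0.25, 0.16, 0.03, -0.18 and -0.42 from the shortest to the longest class. After the correction the median was 0.36 in the shortest class and -0.19 in the longest. Between 1.0 and 0.01 µM the shortest and the longest class had medians of 0.17 and -0.27, and between 10 and 0.1 µM -0.01 and -0.13. The part of span in the results below was not tested.

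**Figure D2:**
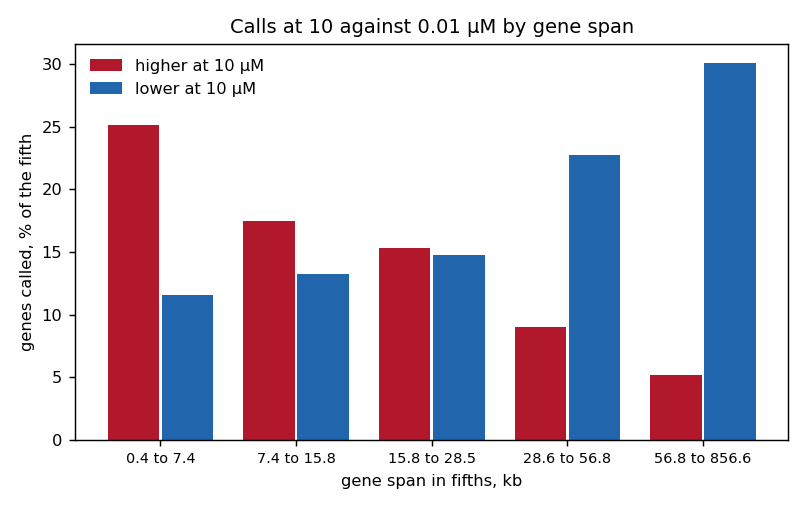
Bars give the percent of genes of each of 5 equal classes of gene span, in kb, that were called higher (red) or lower (blue) at 10 µM than at 0.01 µM. The share of rises is 25.1% in the shortest class and 5.14% in the longest, and the share of falls is 11.6% and 30.1%.

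T helper 1 genes were higher and T helper 2 genes lower at 10 µM. Of 10 T helper 1 genes tested 6 rose and 2 fell (median log2 change 1.19), and of 8 T helper 2 genes 1 rose and 5 fell (median -1.10), beside a median of 0.02 over all genes. Without any 1 library of the end doses the T helper 1 counts stayed at 6 and 2, and 4 or 5 T helper 2 genes fell. Leaving out 0.01 µM A, 0.01 µM B, 10 µM A or 10 µM B took away the rise, and leaving out 0.01 µM C gave 2. Tbx21, which encodes T-bet, was at 17.2, 19.2 and 16.1 in the 10 µM libraries, against 1.17, 0.927 and 1.01 in the 0.01 µM libraries (log2 change 3.18 ± 0.26, adjusted p = 1.37e-07). Cxcr3, the chemokine receptor through which T helper 1 cells enter inflamed tissue, was at 14.1, 13.02 and 14.4 at 10 µM, against 0.167, 0 and 0 at 0.01 µM. That is 163 reads against 1 read, a ratio of 185 per unit of depth with a 95% counting interval of 32.7 to 7347. Every 10 µM library was above every 0.01 µM library in both genes, while 53.3% of all genes tested had no overlap in either direction. Both interleukin 12 receptor chains, which let T cells respond to the T helper 1 cytokine interleukin 12, rose as well. Il12rb2 was at 5.93, 6.17 and 9.77 at 10 µM and 1.17, 1.62 and 1.69 at 0.01 µM (1.71 ± 0.38, adjusted p = 0.00236). Il12rb1 was at 37.00, 21.6 and 24.5 at 10 µM and 9.38, 8.11 and 13.5 at 0.01 µM (1.33 ± 0.24, adjusted p = 5.08e-04). The call of Il12rb1 was lost in the correction (0.86, adjusted p = 0.0573) and kept with the share from the 74 genes (1.08, adjusted p = 0.0104). Within the number ranges, Tbx21 and Cxcr3 were called higher for 10 against 0.1 µM (adjusted p = 0.032 and 0.0208) and for 1.0 against 0.01 µM (adjusted p = 7.45e-06 and 2.04e-05). Il12rb2 was called only for 1.0 against 0.01 µM (adjusted p = 0.00562, and 0.807 for the other contrast). Il12rb1 was called in neither (adjusted p = 0.983 and 0.0692). Cxcr6, a receptor of tissue-resident and effector T cells that stands in the same list, went the other way, with 1.98, 1.03 and 2.68 at 10 µM, against 9.55, 8.81 and 12.8 at 0.01 µM (-2.002 ± 0.28, adjusted p = 4.02e-05, P13.9 mean 0.446). The other T helper 1 gene that fell was Ccl4, a chemokine gene (named after its values were seen), with means of 2.23 ± 0.267 at 10 µM and 7.21 ± 0.144 at 0.01 µM (SD, n = 3 each) and 6.74 in P13.9 cells. Ccl4 passed the filter only through the 0.01 µM libraries.

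**Figure D3:**
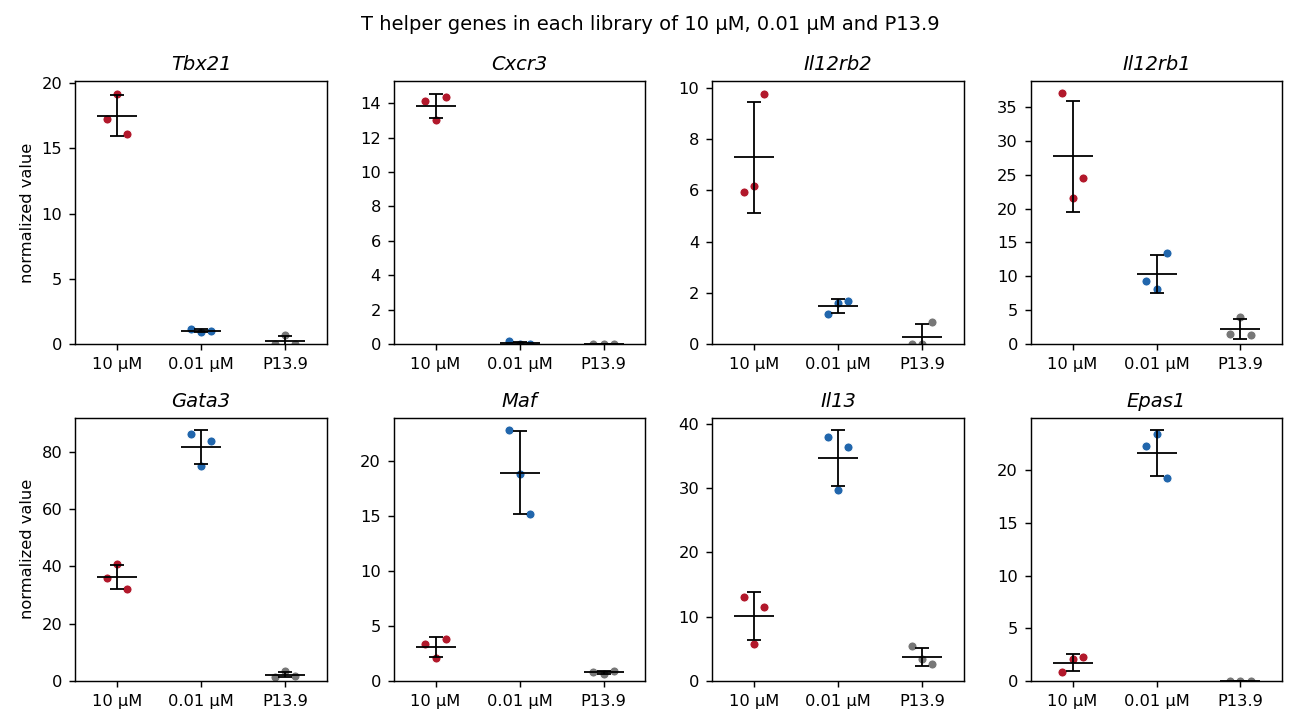
Normalized values of 8 T helper genes in each library (points) with the mean and SD (bars, n = 3) at 10 µM, at 0.01 µM and in P13.9 cells. The upper row, Tbx21, Cxcr3, Il12rb2 and Il12rb1, is higher in every 10 µM library, and the lower row, Gata3, Maf, Il13 and Epas1, is lower in every 10 µM library; P13.9 values of all 8 are below those of the higher dose group.

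Gata3, the regulator that T helper 2 cells depend on, was at 35.9, 40.8 and 32.2 in the 10 µM libraries and 86.2, 74.9 and 83.7 in the 0.01 µM libraries, with a P13.9 mean of 2.21 (log2 change -1.15 ± 0.17, adjusted p = 8.07e-05). Maf, which drives interleukin 4 transcription, was at 3.39, 2.06 and 3.83 at 10 µM, against 22.8, 18.8 and 15.2 at 0.01 µM (-2.29 ± 0.25, adjusted p = 3.73e-06, P13.9 mean 0.773). The cytokine gene Il13 was at 12.99, 5.82 and 11.5 at 10 µM and 38.02, 29.7 and 36.4 at 0.01 µM (-1.74 ± 0.31, adjusted p = 3.84e-04, P13.9 mean 3.79). In all 3 genes the doses did not overlap (nor in 53.3% of all genes tested), and each 0.01 µM value was far above the P13.9 mean. Epas1, which encodes a hypoxia-inducible factor and stands in the T helper 2 list, had no P13.9 read and was at 0.847, 2.06 and 2.299 at 10 µM, against 22.3, 23.4 and 19.2 at 0.01 µM (-3.09 ± 0.28, adjusted p = 4.85e-07). With subtraction alone the falls of Gata3, Maf, Il13 and Epas1 were -1.14, -2.28, -1.702 and -3.09, and all 4 stayed called. The division makes them larger by construction, at -1.77, -2.898, -2.33 and -3.72 in the full correction. Within the number ranges, Gata3, Maf and Epas1 were called lower for 10 against 0.1 µM (adjusted p = 0.0049, 1.33e-04 and 8.47e-05). Il13 was not called there (-0.48, adjusted p = 0.489). For 1.0 against 0.01 µM none of Gata3, Maf, Epas1 and Il13 was called (adjusted p = 0.0846, 0.986, 0.0708 and 0.0857). Several cytokines that define these cells had too few reads to be tested. Ifng had 4 reads in the 10 µM libraries together and 6 in the 0.01 µM libraries, Il4 had 4 and 2, Il5 had 6 and 19, Il10 had 0 and 21, and Il21 had 2 and 19. No change of Ifng or Il4 was detectable at this depth.

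The 6 T helper 17 genes tested held 5 falls and no rise (median -1.78), and 2 of the falls passed the filter only through the 0.01 µM libraries. Of these 6 genes, Tmem176a, a membrane protein gene, was at 2.82, 2.06 and 1.72 at 10 µM and 15.7, 21.8 and 29.4 at 0.01 µM with a P13.9 mean of 52.6, above either dose. Its call was lost in the correction (-1.64, adjusted p = 0.0614). Batf, an AP-1 family factor needed for several helper fates, had a low P13.9 mean of 0.626. It was at 13.3, 8.22 and 11.9 at 10 µM, against 29.8, 25.97 and 30.02 at 0.01 µM (-1.31 ± 0.19, adjusted p = 5.91e-05). Icos, the costimulatory receptor of follicular helper cells, fell likewise, with 8.47, 7.19 and 7.47 at 10 µM, against 20.8, 25.7 and 24.96 at 0.01 µM (-1.51 ± 0.19, adjusted p = 1.68e-05, P13.9 mean 0.223). Bcl6, the regulator of follicular helper cells, was not tested and had 16 reads at each dose.

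Immunoproteasome genes and a number of interferon-stimulated genes were higher at 10 µM. Of 20 immunoproteasome and MHC class I genes tested 11 rose and 1 fell (median log2 change 0.60), and 8 rose and 1 fell after the correction. Of the 36 interferon-stimulated genes of the list 14 were tested, of which 8 rose and 1 fell (median 0.62). Among these rises, 1 passed the filter only through the 10 µM libraries. After the correction 5 of the 14 rose and 3 fell, and with the share from the 74 genes 5 rose and 2 fell. Without 1 library, 6 or 7 interferon-stimulated genes and 8 to 10 of the other list rose. Several members with too few reads to be tested, picked here after their values were seen, had fewer reads at 10 µM than at 0.01 µM. Ifit1 had 1 read at 10 µM and 21 at 0.01 µM, Rtp4 had 13 and 50, Ifit2 had 5 and 19, Rsad2 had 3 and 14, Xaf1 had 6 and 17, and Oas1a had 1 and 9. Other untested interferon-stimulated genes, also picked after their values were seen, had more reads at 10 µM. Gbp5 had 55 reads at 10 µM and 15 at 0.01 µM, Gbp3 had 41 and 12, and Gbp6 had 8 and 1. Irgm1 had 40 at each dose. Igtp, an interferon-induced GTPase that acts against intracellular parasites, was at 50.6, 57.2 and 49.8 at 10 µM and 13.2, 14.6 and 10.8 at 0.01 µM (1.95 ± 0.25, adjusted p = 2.19e-05). Gbp2, a guanylate-binding protein of the same response, was at 30.2, 36.7 and 28.7 at 10 µM and 5.02, 7.65 and 7.42 at 0.01 µM (2.11 ± 0.29, adjusted p = 3.73e-05). Both genes stood near the 0.01 µM level at both middle doses. Igtp averaged 12.5 at 0.1 µM and 13.5 at 1.0 µM, and the difference of 10 against 0.1 µM, within 1 number range, was 2.06 (adjusted p = 1.33e-04) while that of 1.0 against 0.01 µM was 0.04 (adjusted p = 0.923). Gbp2 averaged 7.21 and 5.55 at the middle doses, with 2.01 for 10 against 0.1 µM (adjusted p = 7.32e-04). The rises of Igtp and Gbp2 were still called in the correction, at 1.54 and 1.704, and with subtraction alone, at 2.13 and 2.26. Irf1, itself induced by interferon-gamma and an activator of the other genes, was graded, with means of 28.4, 43.5, 44.5 and 59.7 from 0.01 to 10 µM (10 against 0.01 µM 1.04 ± 0.15, adjusted p = 4.12e-05).

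The promoters of the 3 interferon-stimulated genes with the smallest adjusted p among those with an entry are shown, and they differ in which interferon response letters they hold. They are RefSeq sequences of GRCm38.p6, from 250 bases before to 50 bases after the gene start, all on the plus strand: Igtp at chr11:58199306-58199605, Gbp2 at chr3:142620413-142620712 and Irf1 at chr11:53769764-53770063. Capitals mark the letters of an interferon-stimulated response element (ISRE, GAAANNGAAA) or an interferon-gamma activated site (GAS, TTCNNNGAA), searched on both strands, and no 2 marked matches overlap.
Igtp: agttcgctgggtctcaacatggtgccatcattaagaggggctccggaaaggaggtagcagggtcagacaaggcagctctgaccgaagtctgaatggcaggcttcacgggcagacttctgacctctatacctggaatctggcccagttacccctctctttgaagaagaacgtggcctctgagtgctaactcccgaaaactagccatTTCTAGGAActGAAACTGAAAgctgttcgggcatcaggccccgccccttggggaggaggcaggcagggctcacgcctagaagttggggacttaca
Gbp2: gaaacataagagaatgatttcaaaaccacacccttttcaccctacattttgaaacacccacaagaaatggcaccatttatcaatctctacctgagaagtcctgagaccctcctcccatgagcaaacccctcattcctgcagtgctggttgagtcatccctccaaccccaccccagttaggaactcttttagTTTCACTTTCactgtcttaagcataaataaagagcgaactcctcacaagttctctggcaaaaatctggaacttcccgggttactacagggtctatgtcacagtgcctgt
Irf1: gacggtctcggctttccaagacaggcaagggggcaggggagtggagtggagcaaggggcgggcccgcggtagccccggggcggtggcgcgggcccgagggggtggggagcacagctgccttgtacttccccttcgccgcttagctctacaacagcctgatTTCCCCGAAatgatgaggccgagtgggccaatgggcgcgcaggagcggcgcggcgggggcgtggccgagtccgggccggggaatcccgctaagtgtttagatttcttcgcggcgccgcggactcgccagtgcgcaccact

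In the Igtp promoter the GAS letters begin 45 bases before the start and the ISRE letters 34 bases before it. Gbp2 holds ISRE letters 59 bases before the start, on the minus strand, and Irf1 GAS letters 90 bases before it. A second RefSeq start of Irf1 held neither. Of the 8 interferon-stimulated genes that rose 6 have an entry, and 4 of these held ISRE letters and 4 GAS letters. Some members of the list that were not called also held ISRE or GAS letters. Of all 32851 RefSeq promoters given 3.44% hold ISRE letters and 8.3% GAS letters. Counted per gene with an entry, the shares were 3.87% and 7.79% of 4495 genes tested, and 4.84% and 9.22% of 640 that rose. A match is a description of letters and not a bound site.

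The immunoproteasome replaces the catalytic subunits of the proteasome in immune and interferon-exposed cells and cuts peptides for MHC class I. Its 3 catalytic subunits rose together. Psmb10 was at 74.00, 72.6 and 70.1 at 10 µM and 17.8, 21.6 and 21.3 at 0.01 µM (1.79 ± 0.15, adjusted p = 2.51e-07). Psmb9 was at 98.01, 96.9 and 93.1 at 10 µM and 34.8, 38.02 and 28.00 at 0.01 µM (1.497 ± 0.24, adjusted p = 1.74e-04). Psmb8 was at 178, 171 and 139.6 at 10 µM and 61.1, 58.7 and 53.6 at 0.01 µM (1.47 ± 0.17, adjusted p = 7.53e-06). Tap1, a subunit of the transporter that carries peptides to MHC class I, was at 88.4, 94.5 and 76.6 at 10 µM and 31.3, 31.99 and 32.7 at 0.01 µM, and had reached its 10 µM level at 0.1 µM (mean 88.1). H2-Q7, a non-classical class I gene, was at 20.6, 20.6 and 18.96 at 10 µM and 7.03, 7.19 and 7.08 at 0.01 µM but averaged 29.2 and 31.6 at the middle doses. Reads of class I genes can be shared with near-identical copies, so this value is uncertain. Of 31 genes of the constitutive proteasome 7 rose and 2 fell, beside 14.8% and 17.7% of all genes tested. Without 0.01 µM A or 0.01 µM B 4 rose, and 5 to 8 without any other library, while 1 fell without any library.

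Of 27 genes of the T cell receptor and its signalling 13 rose and 2 fell (median log2 change 0.46), 3 rose and 5 fell after the correction, and 14 rose and 2 fell with subtraction alone. Lck, the kinase that starts TCR signalling, was at 102, 111 and 103 at 10 µM and 46.6, 49.4 and 33.7 at 0.01 µM (1.28 ± 0.15, adjusted p = 7.53e-06), and at 0.69 after the correction (adjusted p = 0.00333). Zap70, the kinase that docks on the phosphorylated receptor, was at 16.7, 18.2 and 13.8 at 10 µM and 8.04, 6.49 and 7.08 at 0.01 µM (1.06 ± 0.19, adjusted p = 4.68e-04), and at 0.52 after the correction (adjusted p = 0.0427). Both kinases had a P13.9 mean under 3 and stayed called. Cd3d, a chain of the receptor complex, was at 74.8, 80.2 and 70.1 at 10 µM and 42.4, 44.7 and 55.7 at 0.01 µM (0.65 ± 0.15, adjusted p = 0.00328) but at 0.03 after the correction (adjusted p = 0.933). Its P13.9 mean was 0.446, and with subtraction alone the change was 0.66 (adjusted p = 0.00541). Cd247, the zeta chain, had a log2 change of 0.71 ± 0.18, beside 0.11 after the correction and 0.73 with subtraction alone. Ptprc, which encodes the phosphatase CD45, fell, with 23.4, 20.2 and 23.4 at 10 µM, against 54.6, 48.2 and 48.2 at 0.01 µM (-1.14 ± 0.20, adjusted p = 3.23e-04, P13.9 mean 0.626). Trat1, an adaptor that binds the zeta chain and slows receptor loss from the surface, fell too, with 4.52, 6.17 and 4.98 at 10 µM, against 40.4, 34.3 and 37.4 at 0.01 µM (-2.63 ± 0.23, adjusted p = 3.83e-07, P13.9 mean 0.223).

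Transcription factors induced by TCR signals split, with 5 of 16 up and 5 down. Of these, 1 rise passed the filter only through the 10 µM libraries and 2 falls only through the 0.01 µM libraries. Batf3, a partner of AP-1 factors in T helper 1 cells, was at 17.8, 20.6 and 13.8 at 10 µM and 4.02, 2.55 and 1.69 at 0.01 µM (2.32 ± 0.31, adjusted p = 2.79e-05). Id3, an inhibitor of E proteins, was at 10.5, 10.96 and 9.39 at 10 µM and 2.01, 1.85 and 1.69 at 0.01 µM (1.98 ± 0.32, adjusted p = 1.71e-04), and passed the filter only through the 10 µM libraries. Like Igtp it stayed low at the middle doses, at 2.93 and 2.18 (10 against 0.1 µM 1.53, adjusted p = 0.0143). Bhlhe40, needed for cytokine production, was at 48.9, 50.4 and 49.04 at 10 µM and 19.8, 24.1 and 32.05 at 0.01 µM (0.96 ± 0.18, adjusted p = 6.93e-04). The early-response gene Egr3 fell, with 0.565, 1.03 and 1.53 at 10 µM, against 6.87, 6.26 and 5.74 at 0.01 µM (-1.86 ± 0.38, adjusted p = 0.00124, P13.9 mean 2.14), and passed the filter only through the 0.01 µM libraries. Irf4 averaged 13.3 ± 2.92 at 10 µM and 11.1 ± 0.969 at 0.01 µM, and Myc 6.37 ± 0.847 at 10 µM and 3.61 ± 0.499 at 0.01 µM (SD, n = 3 each), and neither passed the test (adjusted p = 0.482 and 0.185). Myc, which drives growth and had a P13.9 mean of 10.2, was at 7.34, 5.82 and 5.94 at 10 µM and 3.85, 3.94 and 3.04 at 0.01 µM, without overlap, like 53.3% of all genes tested. It was called higher in the correction (2.298, adjusted p = 0.00661), with the share from the 74 genes (1.56, adjusted p = 0.0287) and under quantile normalization (0.93, adjusted p = 0.04196). In the correction the subtraction leaves the low 0.01 µM values of Myc at or near the floor of 0, which enlarges its difference. Id2 averaged 98.5 ± 16.2 at 10 µM and 118 ± 18.2 at 0.01 µM and did not pass either (adjusted p = 0.2896), although both middle doses were above the ends, at 202 and 267. It was called lower in the correction (-0.86, adjusted p = 0.0128), with the share from the 74 genes (-0.59, adjusted p = 0.0483) and under quantile normalization (-0.498, adjusted p = 0.04402), and not with subtraction alone (-0.23, adjusted p = 0.407). Nr4a1, an immediate reporter of TCR signals, was not tested and had 24 reads at 10 µM and 51 at 0.01 µM.

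The interleukin 2 receptor chains moved apart. Il2rb, the signalling chain, was at 159, 184 and 174 at 10 µM and 80.6, 79.8 and 64.1 at 0.01 µM (1.197 ± 0.20, adjusted p = 2.64e-04). Its call was lost in the correction (0.58, adjusted p = 0.0685) and kept with the share from the 74 genes (0.86, adjusted p = 0.0111). Il2ra, the high-affinity chain CD25, was at 65.5, 69.2 and 57.7 at 10 µM, against 86.8, 86.9 and 82.99 at 0.01 µM (-0.41 ± 0.12, adjusted p = 0.0162, P13.9 mean 0.881). That small fall lost its call without 0.01 µM A (adjusted p = 0.0512), 0.01 µM B (0.0558) or 10 µM C (0.0777). Prdm1, which encodes Blimp-1, fell at -0.92 ± 0.32 (1.69, 0.685 and 1.72 at 10 µM and 4.02, 3.94 and 2.36 at 0.01 µM, adjusted p = 0.0364, P13.9 mean 0.223), and was not called without 0.01 µM A (0.122), 0.01 µM B (0.118), 10 µM A (0.0527) or 10 µM B (0.158). Of 17 cytokine receptor and STAT5 feedback genes 1 rose and 5 fell (2 fell without 0.01 µM A and 3 without 0.01 µM B). Of these falls, 1 passed the filter only through the 0.01 µM libraries. Cish, an inhibitor induced by STAT5, was at 10.2, 10.96 and 17.4 at 10 µM, against 26.6, 24.1 and 23.6 at 0.01 µM (-0.93 ± 0.21, adjusted p = 0.00293, P13.9 mean 3.39). Jak2, a receptor kinase, was at 4.52, 6.17 and 3.45 at 10 µM, against 15.4, 15.8 and 12.1 at 0.01 µM (-1.45 ± 0.26, adjusted p = 4.69e-04, P13.9 mean 4.19).

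Genes of recirculating and resting T cells split: 5 of 17 rose and 2 fell, with a median log2 change of -0.19. Of the rises, 1 passed the filter only through the 10 µM libraries. After the correction 2 rose and 5 fell (median -0.46), and with the share from the 74 genes 4 rose and 3 fell. Ccr7, the receptor for lymph node entry, was at 28.2, 20.6 and 27.01 at 10 µM and 9.38, 8.35 and 9.78 at 0.01 µM (1.36 ± 0.22, adjusted p = 1.71e-04). S1pr1, the receptor for exit from lymph nodes, was at 11.9, 13.02 and 12.6 at 10 µM and 6.36, 3.94 and 6.07 at 0.01 µM (1.09 ± 0.26, adjusted p = 0.00388). Its activator Klf2 was at 11.6, 10.3 and 8.81 at 10 µM and 2.34, 2.78 and 6.07 at 0.01 µM (1.32 ± 0.32, adjusted p = 0.00424). Tcf7, a factor of naive and memory T cells, was at 29.4, 25.3 and 26.1 at 10 µM and 14.7, 12.98 and 11.8 at 0.01 µM (0.98 ± 0.25, adjusted p = 0.006498). None of the 4 genes overlapped between the doses, which also held for 53.3% of all genes tested. After the correction Ccr7 stayed called (0.77, adjusted p = 0.0291), and Klf2, S1pr1 and Tcf7 did not (0.98, 0.53 and 0.42, adjusted p = 0.0996, 0.178 and 0.276). No P13.9 library held a read of Ccr7 or S1pr1, so their values moved by the division alone. With the share from the 74 genes Klf2 and S1pr1 kept their calls (adjusted p = 0.0321 and 0.0422) and Tcf7 lost it (adjusted p = 0.0811), and with subtraction alone all 4 genes kept theirs. Satb1, a chromatin organizer of T cells, fell, with 55.1, 50.7 and 57.3 at 10 µM, against 96.97, 87.2 and 101 at 0.01 µM (-0.795 ± 0.16, adjusted p = 0.00113, P13.9 mean 3.23). Cd44, the adhesion receptor that marks activated and memory T cells and that fibroblasts also carry, was at 31.4, 30.8 and 32.6 at 10 µM, against 94.1, 111 and 121 at 0.01 µM (-1.75 ± 0.17, adjusted p = 8.55e-07, P13.9 mean 63.8). Its 0.01 µM mean of 109 lay above the P13.9 mean, and the fall was -1.49 with subtraction alone and -2.12 after the correction.

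Glycolysis had the highest share of rises among the lists with at least 5 members tested: 19 of 23 rose and none fell (median log2 change 1.23), 16 to 18 rose without 1 library, and 18 rose and 1 fell after the correction. Aldoa, the enzyme that splits fructose bisphosphate, was at 172, 166 and 182 at 10 µM and 49.1, 62.8 and 65.1 at 0.01 µM (1.55 ± 0.16, adjusted p = 1.98e-06). Tpi1, which follows it, was at 122, 129.8 and 104 at 10 µM and 30.5, 33.6 and 48.9 at 0.01 µM (1.66 ± 0.19, adjusted p = 7.53e-06). Ldha, which turns pyruvate into lactate, was at 343, 367 and 300.2 at 10 µM and 110.0, 119 and 157 at 0.01 µM (1.39 ± 0.15, adjusted p = 3.73e-06). The change lay between 0.01 µM and the other doses. Ldha averaged 129, 336, 325 and 337 from 0.01 to 10 µM, and Aldoa 59.00, 186, 204 and 173. For 10 against 0.1 µM the log2 differences of Aldoa, Tpi1 and Ldha were -0.097, 0.11 and 0.01. The glucose transporter Slc2a3 was highest at the middle doses, with 42.6, 49.7 and 46.9 at 10 µM and 17.4, 19.5 and 8.43 at 0.01 µM (1.63 ± 0.24, adjusted p = 8.41e-05) but means of 111 at 0.1 µM and 109 at 1.0 µM (10 against 0.1 µM -1.205, adjusted p = 0.0119). Pgm1, which links glucose to glycogen, and Tkt, of the pentose phosphate pathway, rose too, at 1.704 ± 0.26 and 1.33 ± 0.15. Their values were 35.9, 36.7 and 36.6 and 208, 205 and 188 at 10 µM, and 9.71, 12.1 and 9.78 and 81.1, 82.5 and 73.5 at 0.01 µM.

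Of 19 hypoxia-response genes 7 rose and 3 fell, and 2 of the falls passed the filter only through the 0.01 µM libraries. Without 10 µM B 4 rose, without 0.01 µM A or 0.01 µM C 5, and 6 or 7 otherwise. Ddit4, an inhibitor of mTORC1, was at 98.6, 128 and 119.9 at 10 µM and 39.7, 42.7 and 36.1 at 0.01 µM (1.52 ± 0.16, adjusted p = 2.70e-06). Ak4, a mitochondrial adenylate kinase, was at 10.5, 16.8 and 18.4 at 10 µM and 4.19, 3.01 and 2.02 at 0.01 µM (1.99 ± 0.29, adjusted p = 7.14e-05). Egln1, an oxygen sensor, was at 26.3, 23.3 and 25.7 at 10 µM and 10.6, 11.1 and 10.8 at 0.01 µM (1.14 ± 0.23, adjusted p = 0.00132). Hif1a itself fell in messenger level, with 20.1, 17.8 and 21.1 at 10 µM, against 34.7, 43.1 and 45.2 at 0.01 µM (-1.02 ± 0.19, adjusted p = 7.00e-04, P13.9 mean 30.9). Of 47 nuclear genes of the respiratory chain and ATP synthase 19 rose and 2 fell (median 0.27). The number that rose was 10 without 0.01 µM B, 11 without 0.01 µM A, 12 without 10 µM A and 13 to 22 without the others. Atp5b, a catalytic subunit of ATP synthase, was at 183, 186 and 174 at 10 µM and 108, 94.6 and 96.8 at 0.01 µM (0.85 ± 0.12, adjusted p = 5.23e-05). Cox6c, of cytochrome oxidase, fell, with 38.4, 33.9 and 44.2 at 10 µM, against 108, 88.6 and 72.2 at 0.01 µM (-1.18 ± 0.23, adjusted p = 8.58e-04, P13.9 mean 92.96). Chchd10, a protein of the mitochondrial intermembrane space, had the largest log2 rise of the called genes averaging 20 or more over the 6 libraries without overlap. It was at 58.5, 48.6 and 57.8 at 10 µM and 9.88, 10.9 and 13.8 at 0.01 µM (2.17 ± 0.19, adjusted p = 3.83e-07). Both middle doses lay between the ends, with means of 26.5 at 0.1 µM and 23.7 at 1.0 µM.

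Serine, one-carbon and nucleotide synthesis held 10 rises and no fall among 27 genes (median 0.47). The rises numbered 5 without 10 µM B, 6 without 0.01 µM A and 7 or 8 without any other library. Gart, of purine synthesis, was at 46.9, 50.01 and 38.7 at 10 µM and 28.1, 22.3 and 23.6 at 0.01 µM (0.85 ± 0.18, adjusted p = 0.00214). Srm, of spermidine synthesis, was at 47.5, 45.9 and 43.7 at 10 µM and 24.1, 27.4 and 31.04 at 0.01 µM (0.72 ± 0.17, adjusted p = 0.00371). In contrast to glycolysis, both stood near their 0.01 µM level at 1.0 µM, at 24.2 and 23.9. Cholesterol synthesis split, with 4 of 17 up and 4 down, beside 14.8% and 17.7% of all genes tested. Fdps, of the isoprenoid branch point, was at 24.9, 18.2 and 22.2 at 10 µM and 7.704, 5.796 and 7.76 at 0.01 µM (1.49 ± 0.20, adjusted p = 2.39e-05), whereas Hmgcs1, which opens the pathway, was at 7.63, 8.91 and 10.2 at 10 µM, against 18.9, 21.8 and 25.98 at 0.01 µM (-1.23 ± 0.25, adjusted p = 0.00126, P13.9 mean 10.7).

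**Figure D4:**
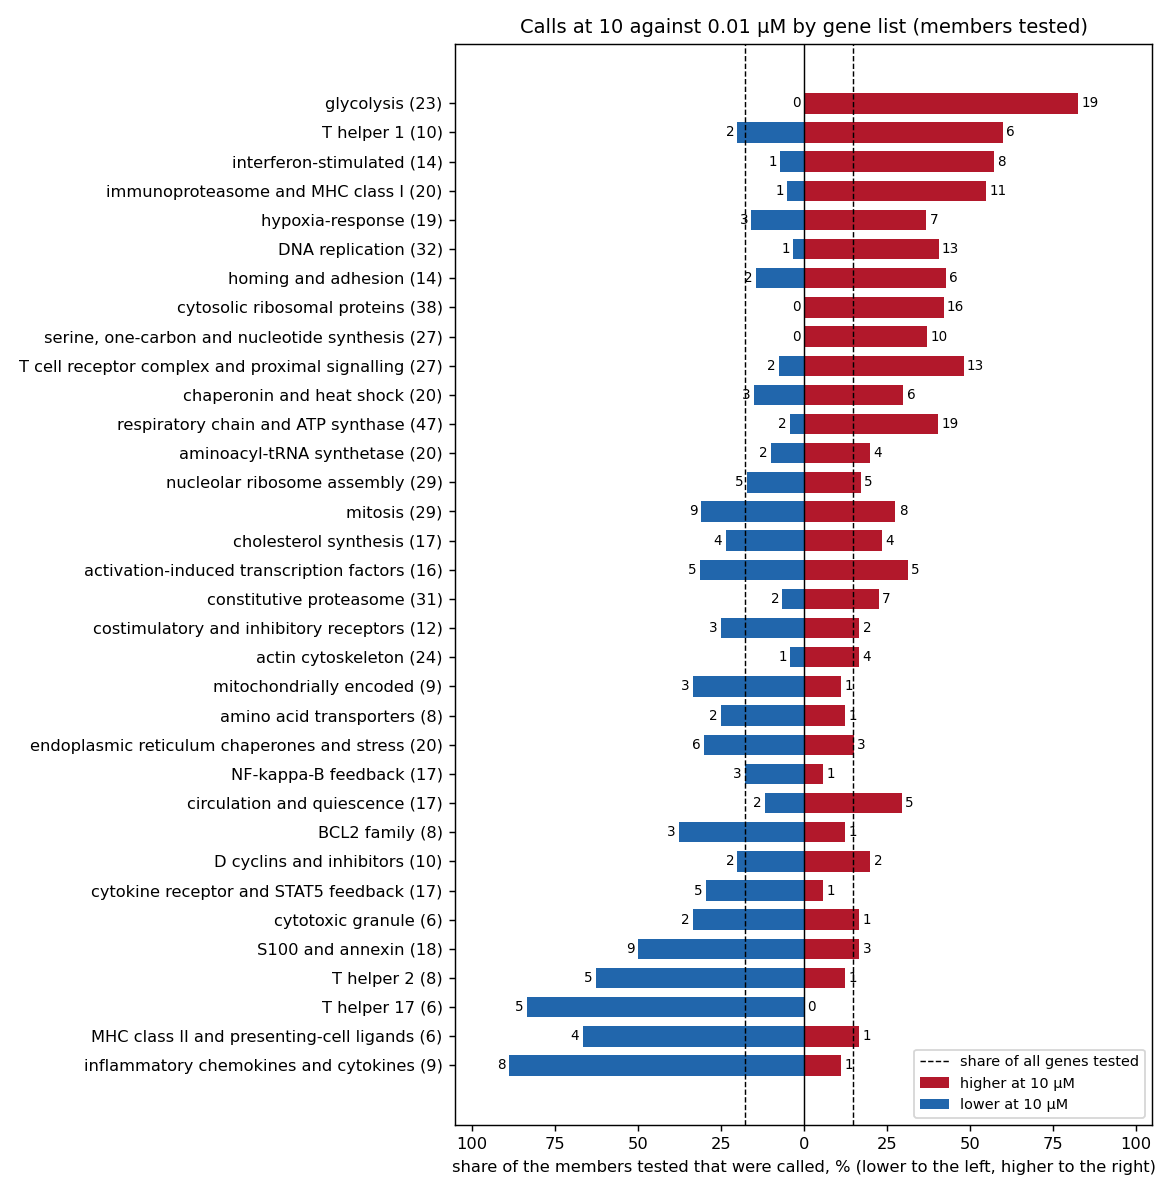
For each gene list with at least 5 members tested (number in brackets), cell type marker lists left out, bars give the percent of members called higher at 10 µM (red, to the right) and called lower (blue, to the left), with counts at the bar ends and lists ordered by median change. Dashed lines mark 14.8% and 17.7%, the shares of all genes tested. Glycolysis (19 of 23 higher) stands at the top and inflammatory chemokines and cytokines (8 of 9 lower) at the bottom.

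DNA replication genes were higher, with 13 of 32 up and 1 down (median 0.54), and 10 to 13 up without 1 library. The 1 fall passed the filter only through the 0.01 µM libraries. Mcm7, a subunit of the replicative helicase, was at 89.5, 82.6 and 75.1 at 10 µM and 38.2, 46.4 and 37.4 at 0.01 µM (1.004 ± 0.14, adjusted p = 4.84e-05). Rpa2, of the single-strand binding complex, was at 111, 116 and 109.6 at 10 µM and 57.3, 61.7 and 60.4 at 0.01 µM (0.895 ± 0.12, adjusted p = 3.73e-05). Cdt1, which loads the helicase, was at 60.7, 56.5 and 52.1 at 10 µM and 24.1, 26.9 and 32.7 at 0.01 µM (0.999 ± 0.16, adjusted p = 1.49e-04). After the correction 8 replication genes rose and 1 fell. Mitosis genes split evenly, with 8 of 29 up and 9 down (5 to 7 and 6 to 8 without 1 library, fewest up without 10 µM C and fewest down without 10 µM B). Ube2c, of the anaphase-promoting complex, was at 45.8, 42.5 and 31.99 at 10 µM and 23.1, 21.8 and 17.5 at 0.01 µM (0.91 ± 0.19, adjusted p = 0.00191), whereas the condensin subunit Smc2 was at 9.603, 9.93 and 17.8 at 10 µM, against 43.5, 42.9 and 34.4 at 0.01 µM (-1.66 ± 0.24, adjusted p = 5.91e-05, P13.9 mean 15.97). Mki67, the proliferation marker Ki-67, fell, with 6.78, 4.45 and 6.32 at 10 µM, against 19.1, 16.2 and 15.2 at 0.01 µM (-1.39 ± 0.29, adjusted p = 0.00145, P13.9 mean 5.86). The 8 mitosis genes that rose span 2.97 to 24.1 kb and the 9 that fell 26.7 to 61.0 kb.

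Of 10 D cyclins, their kinases and inhibitors, of the step into S phase, 2 rose and 2 fell. These counts are near the shares over all genes tested, 14.8% higher and 17.7% lower. Ccnd3, the D cyclin of lymphocytes, and Cdk4 rose: Ccnd3 was at 129.9, 138 and 131 at 10 µM and 62.97, 74.9 and 64.8 at 0.01 µM (0.97 ± 0.12, adjusted p = 1.12e-05). Cdk4 was at 28.5, 20.9 and 21.6 at 10 µM and 9.21, 10.7 and 15.9 at 0.01 µM (0.96 ± 0.22, adjusted p = 0.00354). Ccnd1, a D cyclin of fibroblasts, fell, with 3.95, 4.11 and 4.02 at 10 µM, against 58.1, 68.4 and 67.5 at 0.01 µM and a P13.9 mean of 107 (-3.703 ± 0.28, adjusted p = 7.25e-08). Cdk6 was at 35.9, 41.1 and 48.5 at 10 µM, against 108, 93.2 and 76.6 at 0.01 µM (-1.12 ± 0.21, adjusted p = 6.49e-04, P13.9 mean 44.5).

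Ribosomal protein genes held 16 rises and no fall among 38 tested (median 0.48). Without 10 µM A or 0.01 µM A 10 rose, without 0.01 µM B 11, and 14 to 17 without the others, and under quantile normalization 9 rose. Rps2 was at 125, 123 and 91.9 at 10 µM and 47.9, 45.2 and 54.3 at 0.01 µM (1.18 ± 0.14, adjusted p = 1.09e-05), and many of these genes have near-identical pseudogenes that could share reads. Of 20 endoplasmic reticulum chaperone and stress genes 3 rose and 6 fell, beside 14.8% and 17.7% of all genes tested. Hspa5, the chaperone BiP, was at 97.7, 112 and 112 at 10 µM, against 218, 242 and 201 at 0.01 µM (-1.03 ± 0.15, adjusted p = 6.97e-05, P13.9 mean 264). Hsp90b1, its partner, was at 29.7, 31.9 and 30.8 at 10 µM, against 57.9, 61.2 and 67.8 at 0.01 µM (-0.99 ± 0.15, adjusted p = 8.84e-05, P13.9 mean 64.6). The protein disulfide isomerase P4hb went up, at 103, 104 and 80.8 at 10 µM and 54.8, 59.6 and 57.4 at 0.01 µM (0.73 ± 0.15, adjusted p = 0.00177). Among cytosolic chaperones the ring subunit Cct7 rose (194, 197 and 184 at 10 µM and 121, 116 and 129 at 0.01 µM; 0.65 ± 0.11, adjusted p = 3.06e-04) and the heat shock gene Hsp90aa1 fell (25.1, 28.4 and 22.2 at 10 µM and 55.9, 50.8 and 65.8 at 0.01 µM; -1.15 ± 0.26, adjusted p = 0.00282, P13.9 mean 53.4).

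Inflammatory chemokines, which draw neutrophils and monocytes, had the lowest median of all lists. Of the 27 genes of the list 9 were tested, of which 8 fell and 1 rose (median log2 change -4.08), and 7 or 8 fell without 1 library. Of the falls, 1 passed the filter only through the 0.01 µM libraries. Cxcl2, a neutrophil attractant, was at 3.39, 3.43 and 4.41 at 10 µM, against 144, 171 and 138 at 0.01 µM (-5.000 ± 0.25, adjusted p = 2.05e-10). Cxcl1, its neighbour with the same function, was at 8.19, 8.22 and 8.05 at 10 µM, against 210.2, 269 and 296 at 0.01 µM (-4.81 ± 0.17, adjusted p = 7.95e-13). The monocyte attractant Ccl2 was at 9.89, 11.6 and 6.896 at 10 µM, against 167, 229.5 and 243 at 0.01 µM (-4.36 ± 0.33, adjusted p = 6.71e-08). P13.9 cells alone expressed all 3 genes at lower levels than the 0.01 µM cultures, with means of 18.4, 52.9 and 101 for Cxcl2, Cxcl1 and Ccl2, beside 0.01 µM means of 151, 258 and 213. Ccl9, of the same family, averaged 2.15 ± 1.07 at 10 µM and 54.1 ± 23.8 at 0.01 µM (SD, n = 3 each; -4.099 ± 0.32, adjusted p = 1.01e-07) with a P13.9 mean of 21.5, and Ccl7 2.65 ± 0.506 at 10 µM and 60.8 ± 8.998 at 0.01 µM with a P13.9 mean of 41.3. Csf1, the growth factor of macrophages, was at 7.06, 5.48 and 4.41 at 10 µM, against 72.7, 88.1 and 110.0 at 0.01 µM, where the P13.9 mean was 91.04. With subtraction alone the falls of Cxcl2, Cxcl1, Ccl2 and Csf1 were -5.12, -4.98, -4.61 and -3.95, and in the correction, with the division, -5.76, -5.62, -5.25 and -4.59. Most of each fall lay between 0.01 and 0.1 µM, where Cxcl1 averaged 22.4 and Cxcl2 15.7. Which cell made these chemokines was not tested. The 1 chemokine of the list that rose was Ccl5 (named after its values were seen), a product of effector T cells, with 12.1 ± 1.66 at 10 µM and 5.35 ± 0.471 at 0.01 µM (SD, n = 3 each).

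The promoters of Cxcl1 and Cxcl2, neighbours on chromosome 5, and of Ccl9 are shown because these genes had the smallest adjusted p among the inflammatory genes that fell and have an entry. They are RefSeq GRCm38.p6 sequences from 250 bases before to 50 after the start, for Cxcl1 at chr5:90890995-90891294 and Cxcl2 at chr5:90903649-90903948 on the plus strand and for Ccl9 at chr11:83578587-83578886 on the minus strand. Capitals mark GGGANTTTCC, the NF-kappa-B letters searched on both strands.
Cxcl1: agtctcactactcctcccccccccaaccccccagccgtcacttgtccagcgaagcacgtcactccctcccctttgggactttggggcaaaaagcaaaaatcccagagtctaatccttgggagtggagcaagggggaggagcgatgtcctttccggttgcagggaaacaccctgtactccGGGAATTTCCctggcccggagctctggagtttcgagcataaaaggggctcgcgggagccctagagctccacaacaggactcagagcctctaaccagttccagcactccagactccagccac
Cxcl2: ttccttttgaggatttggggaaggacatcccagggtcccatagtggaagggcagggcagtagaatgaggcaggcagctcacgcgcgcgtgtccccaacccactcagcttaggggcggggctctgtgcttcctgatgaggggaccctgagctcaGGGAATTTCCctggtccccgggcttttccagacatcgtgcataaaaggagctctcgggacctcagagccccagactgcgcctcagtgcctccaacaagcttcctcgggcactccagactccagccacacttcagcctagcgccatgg
Ccl9: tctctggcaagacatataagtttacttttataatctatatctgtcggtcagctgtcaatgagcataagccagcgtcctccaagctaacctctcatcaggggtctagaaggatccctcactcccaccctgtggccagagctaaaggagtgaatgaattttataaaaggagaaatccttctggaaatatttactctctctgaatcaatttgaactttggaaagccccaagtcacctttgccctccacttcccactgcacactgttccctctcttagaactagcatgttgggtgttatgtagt

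The marked letters begin 71 bases before the start of Cxcl1 and 97 before that of Cxcl2, and are the same 10 bases in both. Of the 8 inflammatory genes that fell 6 have an entry and 4 of these held the letters. Of all 32851 RefSeq promoters given, 0.411% hold them. Per gene with an entry, the share was 0.534% of 4495 genes tested, 0.841% of 832 that fell and 0.938% of 640 that rose. The Ccl9 window does not contain these letters, from which nothing is drawn about the factor. In an NF-kappa-B feedback list 1 of 17 genes rose and 3 fell, beside 14.8% and 17.7% of all genes tested. Tnf, a cytokine from that list, was at 3.39, 2.398 and 2.49 at 10 µM, against 6.53, 6.96 and 12.1 at 0.01 µM (-1.31 ± 0.32, adjusted p = 0.00447, P13.9 mean 7.89), and passed the filter only through the 0.01 µM libraries. The inhibitor gene Nfkbia was at 196, 215 and 221 at 10 µM, against 278, 303 and 302 at 0.01 µM (-0.48 ± 0.13, adjusted p = 0.00931, P13.9 mean 322). That call was lost in the correction (-0.43, adjusted p = 0.0589), and with subtraction alone the difference was 0.21 (adjusted p = 0.326).

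Fibroblast matrix genes fell to few reads: 12 of 14 fibroblast markers tested fell and none rose (median -2.73), and 5 of the falls passed the filter only through the 0.01 µM libraries. Sparc, a matrix glycoprotein, was at 1.41, 3.08 and 2.299 at 10 µM, against 30.8, 38.5 and 40.5 at 0.01 µM, with a P13.9 mean of 123 (-3.55 ± 0.25, adjusted p = 3.17e-08). Fn1, fibronectin, was at 2.54, 4.11 and 3.45 at 10 µM, against 25.6, 34.3 and 41.2 at 0.01 µM, with a P13.9 mean of 277 (-2.98 ± 0.30, adjusted p = 1.92e-06). Col1a2, a collagen chain, was at 0.282, 0.685 and 0.575 at 10 µM, against 12.6, 15.8 and 23.95 at 0.01 µM, with a P13.9 mean of 51.4. The lysosomal genes Cd63 and Gpnmb had P13.9 means of 468 and 800.4 and log2 changes of -3.005 ± 0.23 and -2.44 ± 0.22. In the correction the subtraction took every value of Sparc, Fn1, Cd63 and Gpnmb at both end doses to the floor of 0. Their log2 change of 0 after the correction is therefore set by the floor and does not measure what remained (Sparc and Fn1 are among the markers that set this share). With the share from the 74 genes Sparc stayed called at -3.41 (adjusted p = 1.86e-04). Calcium-binding S100 proteins and annexins, a list with 9 of 18 down and 3 up (median -0.48; 7 to 10 down without 1 library), held genes of both kinds. After the correction 4 were higher and 3 lower (median 0.28), with the share from the 74 genes 4 and 5 (median 0.011), and 4 of the 9 falls passed the filter only through the 0.01 µM libraries. S100a4 was at 14.4, 14.04 and 11.5 at 10 µM, against 103, 150.5 and 148 at 0.01 µM with a P13.9 mean of 209 (-3.22 ± 0.21, adjusted p = 2.03e-08). Anxa1 was at 2.26, 4.11 and 1.15 at 10 µM, against 23.9, 28.3 and 31.4 at 0.01 µM with a P13.9 mean of 40.5 (-3.12 ± 0.34, adjusted p = 3.73e-06). S100a8, one chain of the myeloid protein calprotectin, had a P13.9 mean of only 0.3701 and was at 3.11, 3.77 and 3.64 at 10 µM, against 27.6, 25.7 and 30.02 at 0.01 µM (-2.68 ± 0.29, adjusted p = 3.98e-06). In the naive libraries, which held only 27789 to 97757 reads, its mean was 483.

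Of 16 MHC class II and presenting-cell ligand genes 6 were tested, and 5 of these, with all 4 that fell, passed the filter only through the 0.01 µM libraries, so nothing is read from their count. Among members with too few reads, H2-Aa had 6 reads at 10 µM and 13 at 0.01 µM, H2-Ab1 had 9 and 6, and Cd74 had 35 and 58 (picked after their values were seen). H2-Eb1, the beta chain of the I-E class II molecule, was at 0.847, 2.398 and 0.383 at 10 µM, against 15.7, 16.7 and 18.9 at 0.01 µM, with a P13.9 mean of 13.3 (-3.14 ± 0.39, adjusted p = 1.30e-05). The costimulatory ligand Cd80 was at 1.13, 2.06 and 1.15 at 10 µM, against 10.2, 8.35 and 14.2 at 0.01 µM, with a P13.9 mean of 20.3 (-2.28 ± 0.33, adjusted p = 6.90e-05). Cd40, which T cell CD40 ligand engages, was at 0.282, 1.03 and 0.958 at 10 µM, against 7.03, 8.35 and 13.5 at 0.01 µM, with a P13.9 mean of 6.44 (-2.58 ± 0.39, adjusted p = 1.04e-04). At 0.01 µM the means of H2-Eb1 and Cd40 were above those of P13.9 cells alone. Ighm, the immunoglobulin mu chain of B cells, was at 19.2, 15.4 and 14.6 at 10 µM and 6.03, 3.71 and 5.06 at 0.01 µM (1.56 ± 0.22, adjusted p = 5.11e-05) with a P13.9 mean of 0.223.

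Falls of genes that P13.9 cells hardly express included signalling and adhesion genes. Among called genes with a 0.01 µM mean of at least 10 and a P13.9 mean at or below the 10 µM mean, the 20 largest falls ran from Epas1 to Ranbp2 (-1.35 ± 0.30). Marcks, a membrane substrate of protein kinase C, was at 11.9, 6.85 and 8.05 at 10 µM, against 38.4, 35.9 and 32.05 at 0.01 µM (-1.91 ± 0.24, adjusted p = 1.63e-05, P13.9 mean 0.659). Tiam1, an activator of the GTPase Rac, was at 8.19, 8.22 and 7.28 at 10 µM, against 33.3, 32.2 and 29.01 at 0.01 µM (-1.87 ± 0.25, adjusted p = 2.92e-05, P13.9 mean 0.669). Ncoa7, a nuclear receptor coactivator, was at 6.78, 5.14 and 6.704 at 10 µM, against 34.8, 32.7 and 29.01 at 0.01 µM (-2.21 ± 0.36, adjusted p = 2.21e-04, P13.9 mean 3.61). None of these overlapped between the doses, which also held for 53.3% of all genes tested. In the same class, Itgb3, the beta 3 integrin, was at 1.69, 1.71 and 4.02 at 10 µM, against 16.1, 16.9 and 8.097 at 0.01 µM (-2.08 ± 0.38, adjusted p = 4.68e-04, P13.9 mean 0.3701). Rgs1, which dampens chemokine receptor signals, was at 2.82, 3.43 and 5.94 at 10 µM, against 16.6, 13.4 and 13.8 at 0.01 µM (-1.67 ± 0.25, adjusted p = 1.05e-04, P13.9 mean 0.479). Inpp4b, a phosphoinositide phosphatase, was at 6.78, 4.796 and 8.81 at 10 µM, against 24.1, 21.6 and 18.6 at 0.01 µM (-1.55 ± 0.38, adjusted p = 0.00488, P13.9 mean 0.3701).

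The middle doses separated genes with like differences between the ends. Among the 872 genes that rose, both middle means lay between the end means in 447 (51.3%) and past the 10 µM mean in 203, and among the 1042 that fell in 782 (75.0%) and 58. Those past the 10 µM mean make 23.3% of the rises and 5.57% of the falls, beside 25.8% of all genes with a log2 change above 0 and 17.4% of all with one below 0. Over all genes with a log2 change above 0 both middle means lay between the ends in 27.5%, and over all with one below 0 in 39.3%. Maf, Cxcr6, Batf and Rgs1 fell at 10 µM alone. Maf averaged 15.8 and 19.3 at 0.1 and 1.0 µM (10 against 0.1 µM -2.06, adjusted p = 1.33e-04; 1.0 against 0.01 µM 0.01, adjusted p = 0.986), and Cxcr6 14.00 and 16.2 (-2.401, adjusted p = 8.47e-05; 0.56, adjusted p = 0.152). Batf averaged 27.3 and 24.1 (-1.24, adjusted p = 0.00123) and Rgs1 13.6 and 12.6 (-1.56, adjusted p = 0.00248). The granzymes, serine proteases of cytotoxic granules, had their highest means at the middle doses. Gzma was at 3.11, 5.82 and 4.21 at 10 µM, against 8.71, 8.35 and 7.42 at 0.01 µM (-0.796 ± 0.22, adjusted p = 0.0104, P13.9 mean 1.25), and averaged 88.4 at 0.1 µM and 91.5 at 1.0 µM. The differences of Gzma within the number ranges were -4.07 between 10 and 0.1 µM (adjusted p = 1.70e-09), and 3.300 between 1.0 and 0.01 µM (adjusted p = 2.09e-08), while its small difference between the ends was not called without 10 µM A (-0.62, adjusted p = 0.0665). Gzmb was at 15.8, 9.59 and 12.8 at 10 µM and 2.51, 4.405 and 3.71 at 0.01 µM (1.59 ± 0.27, adjusted p = 3.12e-04) and averaged 26.1 and 19.01 at 0.1 and 1.0 µM. Cmtm7, a membrane protein gene, also stood higher in the middle, at 84.98 and 90.3, than at 10 µM (59.9, 57.2 and 29.3) or 0.01 µM (14.4, 14.4 and 15.9).

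**Figure D5:**
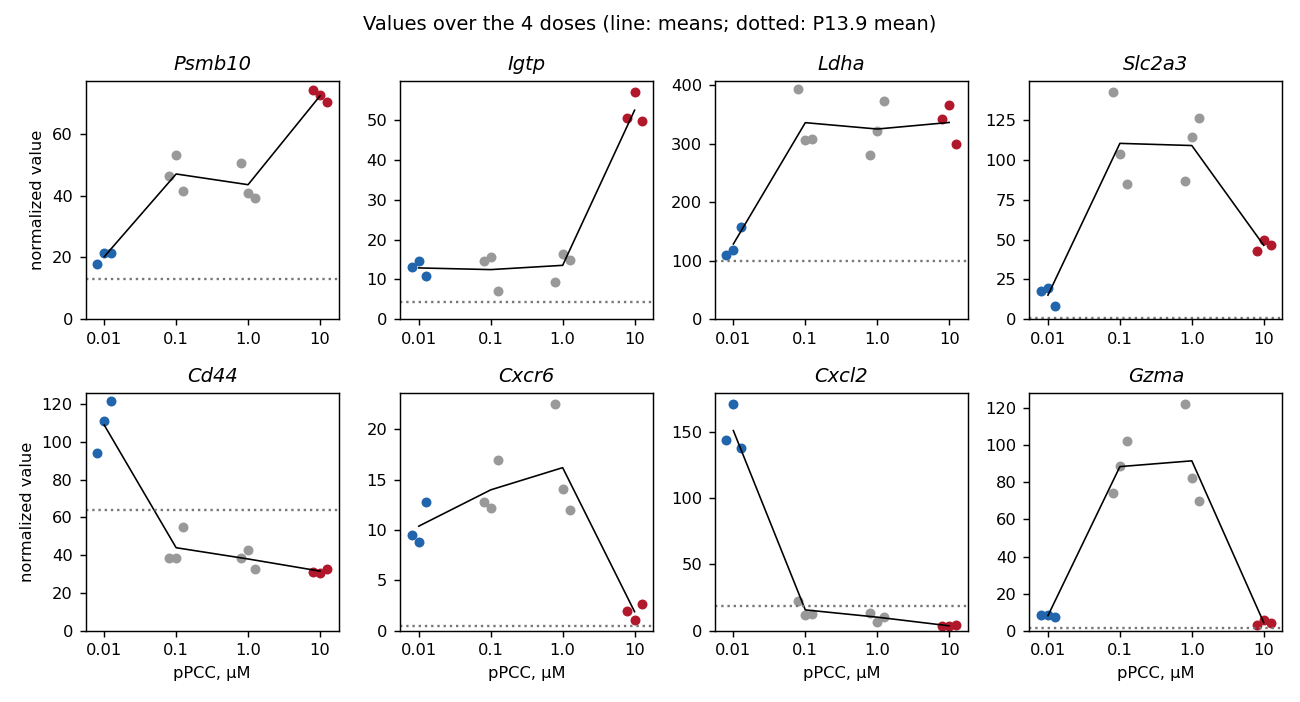
Normalized values of 8 genes over the 4 doses, with a point per library, a line through the means and a dotted line at the P13.9 mean; 10 µM points are red, 0.01 µM points blue and middle doses grey. Igtp is high at 10 µM alone, Ldha has reached its 10 µM level by 0.1 µM, Slc2a3 and Gzma peak at the middle doses, and Cd44 and Cxcl2 fall by 0.1 µM.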

How the data were processed

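The libraries were made with the Lexogen QuantSeq 3′ kit from TRIzol-extracted RNA and sequenced on a NextSeq 500, per the labels' protocols. Per the submitters' processing notes, the tools were DESeq2 (no version), HTSeq 0.9.1, STAR 2.6.1d and FastQC 0.11.8, with mouse build mm10 and no roles stated. The deposited signal values are counts per gene divided by a size factor of each library, which the authors computed; whole reads came back for 284543 of 284544 values (within 1e-05 of a read). A total of 110 features without a name were left out of 15808.

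The main test was limma 3.58.1 (R 4.3.3; lmFit, then eBayes with a trend) on log2(value + 1) over the 12 activated libraries, with genes at 5 or more in at least 3 libraries and Benjamini-Hochberg adjustment over the 5897 genes tested. It was tested on simulated data. The count test of edgeR 4.0.16 on the recovered reads called 2365 genes. DESeq2 1.42.0, other filters, pseudocounts, normalization, array weights, the library letter as a block, a correction for the P13.9 share and leaving out each library were the alternatives. In the correction the share times the P13.9 mean was subtracted, floored at 0, and the rest divided by 1 minus the share. Subtraction without the division was also run, and was chosen after the data were seen. The letters A, B and C were not treated as pairs. The precision is limited by 3 libraries per dose, and counting intervals cover counting error only.

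The naming rule allows 243 genes, of which the text names 112, a selection: 20 set genes; from the called genes whose 6 libraries averaged 20 or more without overlap, 20 with the highest and 20 with the lowest log2 change; from the called genes averaging 10 or more at 0.01 µM and no less at 10 µM than in P13.9 cells, 20 with the lowest log2 change; and, per list, 6 genes ranked by adjusted p. For promoters the 3 genes with the smallest adjusted p and an entry were taken from the interferon-stimulated list, among rises, and from the chemokine list, among falls. The rule, the members and the lists were chosen with earlier results of these data known. Of the gene names 13863 matched a RefSeq symbol, 30 a synonym and 1805 neither.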

Additional observations from a re-analysis of the deposited data

How the results depend on the processing

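Beside 1914 genes called (872 higher at 10 µM, 1042 lower), the fit over 15 T cell libraries called 557 (145 higher, 412 lower), array weights 3059 (1514 higher, 1545 lower), and a filter of 20 called 803 of 1732 genes tested (526 higher, 277 lower). Without a filter 2799 were called, of which 1986 were lower. Correction for the P13.9 share, with division by 1 minus the share, left 637 (fibroblast markers) or 678 (genes with no naive read) lower. With the marker share subtracted and no division, chosen after the data were seen, 2536 were higher and 232 lower, and the P13.9 share itself differed by -34.2 percentage points with the markers (-38.6 to -29.5 without 1 library) and by -20.95 with the other genes. The median log2 change of all genes was 0.02, and 0.13 or 0.087 after the corrections, and 0.67 without the division. The other alternatives called between 1496 (correction, genes with no naive read) and 2768 genes (subtraction without division). Leaving out 1 library gave 1299 to 1609 genes called, 552 to 718 higher and 747 to 918 lower. Library letters did not pair the samples: same-letter libraries of the end doses correlated at -0.22, -0.089 and -0.016 in their deviations from the dose means. With the letter as a replicate block 1788 genes were called (798 higher, 990 lower), 98 for 10 against 0.1 µM, 1234 for 1.0 against 0.01 µM, and 226 for the dose slope, beside 354 without the block. Of the named genes that were called, Nfkbia (0.21) and Mcl1 (0.17) turned their direction with subtraction without division, where 10 others lost the call, and none under any other alternative; 32 lost the call with 15 T cell libraries, 16 with the correction from the markers and 6 with that from the genes with no naive read. The causes were not tested. Depth limits genes under about 5 normalized counts, and the number range cannot be told apart from dose at the end doses.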

Other observations

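Of 24 actin cytoskeleton genes 4 were called higher at 10 µM and 1 lower, beside 14.8% and 17.7% of all genes tested. The counts were 2 and 3 in the correction for the P13.9 share from the markers and 12 and 1 with subtraction alone. Coro1a, an actin-binding protein of T cells, was at 145, 136 and 129 at 10 µM and 64.6, 60.97 and 92.4 at 0.01 µM (limma log2 change 0.92 ± 0.18, adjusted p = 7.25e-04; 0.31 after the correction, adjusted p = 0.369). Rac2, a GTPase of blood cells, was at 117, 101 and 89.5 at 10 µM and 59.5, 56.6 and 49.6 at 0.01 µM (0.88 ± 0.14, adjusted p = 1.29e-04; 0.26 after the correction, adjusted p = 0.162). P13.9 cells hardly expressed either gene (means 2.62 and 0.734), and the calls were lost through the division by 1 minus the share. With subtraction alone the changes were 0.94 and 0.89, and with the share from the 74 genes 0.59 (adjusted p = 0.0459) and 0.54 (adjusted p = 0.0103), all still called. Tmsb4x, which holds actin monomers, was at 296, 299 and 314 at 10 µM, against 419, 382 and 477 at 0.01 µM (-0.48 ± 0.13, adjusted p = 0.007805, P13.9 mean 8.59).

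Of 8 BCL2 family genes, which set the threshold for apoptosis, 1 was called higher and 3 lower, beside 14.8% and 17.7% of all genes tested. Bid, a promoter of apoptosis, was at 3.67, 2.74 and 3.45 at 10 µM, against 11.6, 10.9 and 11.8 at 0.01 µM (limma log2 change -1.54 ± 0.25, adjusted p = 1.98e-04, P13.9 mean 18.6). Mcl1, which protects from apoptosis, was at 28.8, 30.1 and 36.97 at 10 µM, against 52.3, 51.2 and 48.6 at 0.01 µM (-0.66 ± 0.14, adjusted p = 0.00226, P13.9 mean 63.1). Both P13.9 means lie above the 0.01 µM values, and Bid passed the filter only through the 0.01 µM libraries. With subtraction alone the Mcl1 difference was 0.17 (adjusted p = 0.508).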
